A study of Mus musculus with 4 samples.

Results

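The 9 genes described here encode S100 proteins that 4T1 tumour cells could express: S100a1, S100a3, S100a4, S100a6, S100a10, S100a11, S100a13, S100a14 and S100a16. They were chosen by name out of 53647 genes listed, and all 9 were found by their Ensembl identifiers. RNA was sequenced from 4T1, an established carcinoma line from the mammary gland of a BALB/c mouse, called wild type in the labels, after delivery of an mRNA. The Mock group (2 libraries) received mRNA for the fluorescent protein EGFP, and the uniSTING group (2 libraries) received mRNA for uniSTING, which was built to imitate active STING, an adaptor of innate immunity. So both groups received a foreign mRNA, and no untreated cells are in the comparison. Which libraries had the mRNA from a transfection reagent and which from lipid nanoparticles is not in the labels, nor are the dose and the time. S100a8 and S100a9 were left out by the rule, since their reads came nearly all from the replicate 1 libraries, with 37 and 79 counts of S100a8 there in Mock and uniSTING against 0 and 2 in the replicate 2 libraries.

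S100 proteins are small calcium-binding proteins with a pair of EF-hand motifs each, and most work as dimers that open a binding surface when calcium enters. Through that surface they bind annexins, cytoskeletal motors, ubiquitin ligase adaptors and, outside the cell, receptors such as RAGE. S100a10 is an exception, as it no longer binds calcium and sits in a stable complex with annexin A2. In carcinoma the family is best known for S100a4, which is linked to motility and metastasis.

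Total counts ran from 17502694 to 25071840 per library. The epithelial character of 4T1 was seen in 11 marker genes (keratins, claudins, Epcam, Cdh1 and Esrp1), all with counts, which summed to between 5317 and 5689 CPM per library (CPM, counts scaled by library size). Over genes with at least 50 counts, the 2 libraries of a group differed by 1.46 times (Mock) and 1.51 times (uniSTING) the variance of counting noise. The labels number the libraries of a group as preparations and do not say that they came from separate cultures, so the spread that p-values are based on is between libraries and may be only technical.

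Of the 9 members, 8 passed the filter on low counts and were tested, and S100a16 was not. In uniSTING against Mock, S100a1, S100a6, S100a10, S100a11 and S100a14 rose, no member fell, and S100a3, S100a4 and S100a13 did not pass (edgeR quasi-likelihood test, adjusted p under 0.05 over all 12972 genes tested). Of all tested genes 50.2% passed, 24.9% higher and 25.4% lower. No tested member had a log2 fold change below 0 in that fit, and DESeq2 and limma-voom also called 0 members lower. Over the 8 tested members the median log2 fold change was 0.39, against 0.006 over all tested genes. S100a14 passed the filter only through the uniSTING group, where it is high, so it had to come out higher, and without it 4 of 7 members rose, with a median of 0.31. The CPM values of both uniSTING libraries lay above those of both Mock libraries for 6 of the 8 tested members, and the same held for 37.8% of all tested genes. Those 6 include S100a14, whose direction the filter had fixed. No tested member had both uniSTING libraries below both Mock libraries, as 37.3% of all tested genes did.

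Fold changes went with exon length. Across 7970 genes with a mean of at least 16 CPM, longer genes had lower fold changes (Spearman rho -0.49), a description across genes, which are not independent replicates. S100 genes are short, and genes of the shortest decile had a median log2 fold change of 0.27. Once the trend of counts with exon length was removed from each library, S100a6 and S100a10 were still higher, S100a1 no longer passed and S100a11 was lower. Trends with length and GC content together and with transcript length were also removed, and S100a10 stayed higher in all 3 corrections, while S100a6, S100a11, S100a13 and S100a3 had a log2 fold change below 0 in at least 1. S100a14 is left out of this account, since the filter fixed its direction. Corrected values stand beside each tested member.

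**Figure D1:**
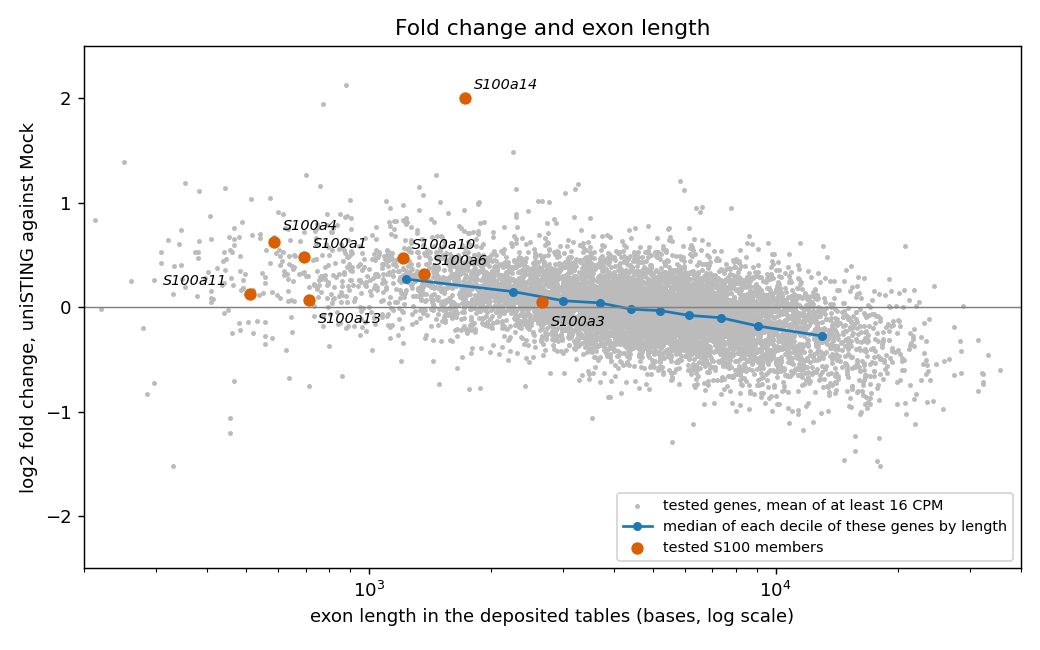
Log2 fold change (uniSTING against Mock) against exon length on a log axis for 7970 tested genes with a mean of at least 16 CPM (grey, 7 of them outside the axes), with the median of each decile by length (blue) and the 8 tested S100 members (orange). The shortest decile has a median of 0.27 and the longest decile one of -0.28, and S100a11 and S100a13 sit below the blue line's left end while S100a14 sits far above it.

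All members lie on chromosome 3 (GRCm39) within 3053.6 kb, in 2 groups. S100a1, S100a13, S100a14, S100a16, S100a3, S100a4 and S100a6 stand in this order between 90418341 and 90531488, and S100a11 and S100a10 lie between 93427795 and 93471950. S100a1 is on the minus strand and the others on the plus strand. Their levels were compared per kilobase of the exon length that the deposited tables give.

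In Mock, S100a6 was highest with 1603 ± 15.7 CPM per kilobase (SD, n = 2), followed by S100a11 with 1454 ± 10.3 and S100a10 with 590 ± 11.8. These 3 genes took 99.2% of the counts of all 9 members. S100a6 ranked 15th, S100a11 19th and S100a10 60th among the genes with a count. The next member, S100a1, had 19.3 ± 0.146 CPM per kilobase, 30.6 times less than S100a10. Below it came S100a13 with 12.0 ± 0.810, S100a4 with 3.87 ± 0.434 and S100a3 with 2.34 ± 0.212. S100a16 and S100a14 were last with 0.112 ± 0.0399 and 0.108 ± 0.0791, and these neighbours in the order did not differ beyond their spread. For every other pair of neighbours both Mock libraries of the upper gene lay above both of the lower one. In uniSTING the order was the same down to S100a3, and S100a14 and S100a16, which overlapped there too, changed places.

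The choice of length matters for this order. S100a3 has 2670 exon bases in the deposited tables and 712 in its longest coding transcript of an older annotation (GENCODE M21), and per kilobase of that transcript S100a3 (8.76 ± 0.795) stood above S100a4 (4.54 ± 0.509) in Mock. S100a6, with 1367 against 731 bases, then had 2997 ± 29.3 CPM per kilobase, further above S100a11, whose length is 511 in both.

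**Figure D2:**
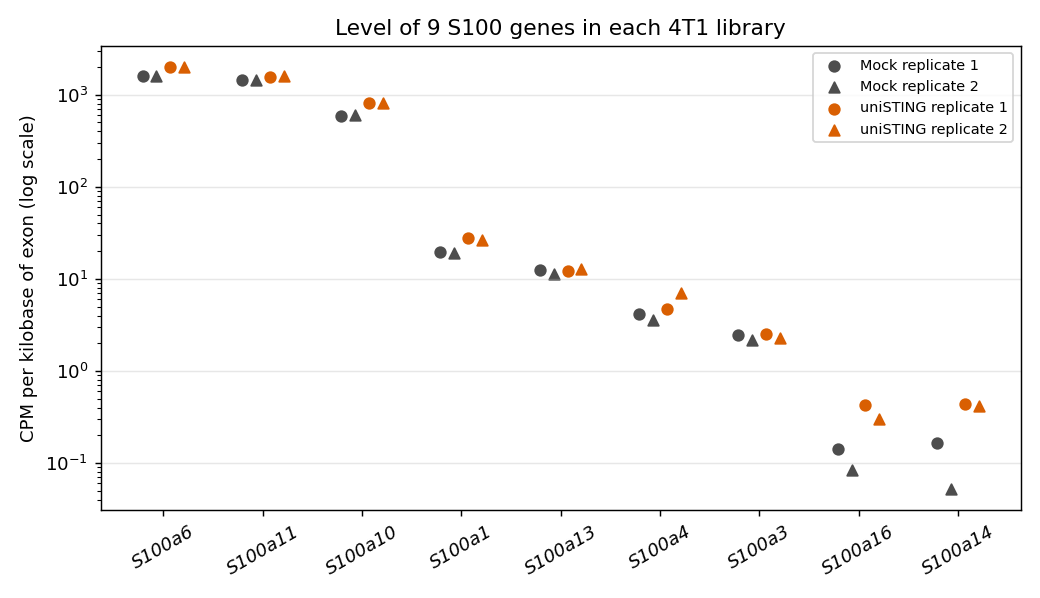
Level of the 9 S100 genes in each library as CPM per kilobase of exon on a log axis, Mock in grey and uniSTING in orange, replicate 1 as circles and replicate 2 as triangles. S100a6, S100a11 and S100a10 lie highest in all 4 libraries, S100a1 comes next with 19.2 to 27.6, and S100a16 and S100a14 lie lowest, at 0.433 or less.

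S100a6 (calcyclin; ENSMUSG00000001025, chromosome 3, 90520189 to 90531488, plus strand) binds the ubiquitin ligase adaptor CacyBP and annexin A11. The Mock libraries held 38343 and 48746 of its reads and the uniSTING libraries 50792 and 68088, which is 2176 and 2206 CPM against 2711 and 2735 CPM. Both uniSTING libraries lay above both Mock libraries, and the gap was many times the distance within a group. S100a6 rose 1.24-fold (log2 fold change 0.31, SE 0.01, adjusted p = 6.12e-09), by 0.32 between the replicate 1 libraries and 0.31 between those of replicate 2. With the exon length trend removed the log2 fold change was 0.07 (adjusted p = 3.90e-04). Removal of length and GC content trends gave a log2 fold change of 0.11 (adjusted p = 9.85e-06). With the trend in the longest coding transcript removed instead, it was -0.03 (adjusted p = 0.0413), so the direction depends on the length used. None of the 50-base windows of its transcript occurred in a transcript of another gene.

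S100a10 (p11; ENSMUSG00000041959, chromosome 3, 93462387 to 93471950, plus strand) is the light chain of the annexin A2 complex, which binds plasminogen activators at the cell surface. Mock libraries gave 12422 and 16021 counts and uniSTING libraries 18560 and 24553, or 705 and 725 CPM against 991 and 986 CPM. The uniSTING libraries lay close together and clear of the Mock libraries. The gene rose 1.38-fold (log2 fold change 0.47, SE 0.02, adjusted p = 4.94e-09). S100a10 stayed higher under each length correction, at 0.20 with exon length (adjusted p = 3.86e-06), 0.19 with length and GC content (adjusted p = 3.55e-06) and 0.11 with transcript length (adjusted p = 2.62e-04).

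S100a11 (calgizzarin; ENSMUSG00000027907, chromosome 3, 93427795 to 93433594, plus strand), is a partner of annexins A1 and A2. Counts of 13165 and 16342 (Mock) and 15102 and 20191 (uniSTING) were equal to 747 and 740 CPM against 806 and 811 CPM. The groups did not overlap, and the rise was 1.09-fold (log2 fold change 0.12, SE 0.02, adjusted p = 6.38e-05). With the exon length trend removed S100a11 fell by 0.24 (adjusted p = 1.45e-06), with length and GC content by 0.26 (adjusted p = 3.82e-07) and with transcript length by 0.30. Its level is uncertain, since 41.1% of the 50-base windows of its transcript also occur in pseudogene transcripts, and only uniquely mapped reads were counted. Of these, Gm12854 shares 190 windows and held 68 and 94 reads (Mock) against 138 and 192 (uniSTING). Gm7665 shares 108 windows and held 390 and 512 against 525 and 654, and Gm29240 had no count. These pseudogenes lie outside the rule for named genes, and how many of their reads are S100a11 reads was not tested.

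The abundant members were also compared as ratios of counts within a library, which need no scaling between libraries. Such ratios do not remove a trend with length, and S100a11 has 511 exon bases against 1212 for S100a10 and 1367 for S100a6. The uncertain level of S100a11 also enters the ratios that hold it. Each S100a11 count came with 0.944 and 0.980 S100a10 counts in Mock, against 1.23 and 1.22 in uniSTING. For S100a6 per S100a11 the ratios were 2.91 and 2.98 in Mock and 3.36 and 3.37 in uniSTING. S100a6 per S100a10 went the other way, from 3.09 and 3.04 to 2.74 and 2.77. For each of 5 such ratios computed, the exact two-sided permutation test gave p = 0.333 (adjusted p = 0.333), the smallest that 2 against 2 libraries allow, so it cannot reach the threshold.

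The sequences just upstream of the start of the abundant members are shown for S100a6, the member with the highest level, and for S100a11, which was chosen after its values were seen. RefSeq promoter windows (GRCm38.p6, 250 bases before to 50 after a start) were found for 7 members, 11 windows in all, and not for S100a10 and S100a14. The 150 bases before the start of S100a6 (chr3:90612744-90612893, plus strand) and S100a11 (chr3:93520346-93520495, plus strand) read 5′ to 3′ as follows, with matches to the searched motifs in capitals.
S100a6: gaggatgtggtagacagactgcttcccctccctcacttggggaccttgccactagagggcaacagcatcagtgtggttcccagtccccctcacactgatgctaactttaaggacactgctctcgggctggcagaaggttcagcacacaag
S100a11: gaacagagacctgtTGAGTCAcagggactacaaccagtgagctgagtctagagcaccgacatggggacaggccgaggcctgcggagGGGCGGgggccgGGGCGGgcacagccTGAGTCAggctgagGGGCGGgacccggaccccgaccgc
The motifs were the TATA box TATAAA, the GC box GGGCGG, the AP-1 site TGANTCA and the core of the interferon-stimulated response element, each on both strands. S100a11 held AP-1 matches that begin at positions -136 and -38 from its start, and GC boxes at -64, -52 and -24. AP-1 letters occurred in 7.81% of all 32851 promoter windows and GC boxes in 35.7%. The S100a6 window held no match to any of the 4. The interferon element, in 3.44% of all windows, was in none of the 11 member windows, which says only that these letters are not there.

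S100a1 (ENSMUSG00000044080, chromosome 3, 90418341 to 90421699, minus strand), best known from muscle, where it binds calcium-handling proteins, was counted 237 and 294 times (Mock) and 359 and 453 times (uniSTING). These are 13.4 and 13.3 CPM against 19.2 and 18.2 CPM, without overlap. S100a1 rose 1.39-fold (log2 fold change 0.48, SE 0.08, adjusted p = 4.01e-04). With the exon length trend removed it had a log2 fold change of 0.15 and did not pass (adjusted p = 0.139). It also did not pass with length and GC content, at 0.19 (adjusted p = 0.0726), or with transcript length, at 0.12 (adjusted p = 0.243).

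S100a13 (ENSMUSG00000042312, chromosome 3, 90421742 to 90431888, plus strand) takes part in the release of FGF1 and interleukin 1 alpha, which lack a signal peptide. Its counts of 158 and 180 (Mock) and 165 and 227 (uniSTING) make 8.96 and 8.15 CPM against 8.81 and 9.12 CPM, and the groups overlapped. The log2 fold change of 0.07 did not pass (95% interval -0.17 to 0.32, adjusted p = 0.626), and it was -0.26 with the exon length trend removed (adjusted p = 0.0847).

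S100a1 and S100a13 start back to back, and 104 bases (GRCm38.p6, chr3:90514331-90514434, plus strand) separate their RefSeq starts. The stretch, chosen after the values were seen, is shown because 1 of the 2 genes passed the test and the other did not, and none of the 4 motifs was found in it.
S100a1 to S100a13: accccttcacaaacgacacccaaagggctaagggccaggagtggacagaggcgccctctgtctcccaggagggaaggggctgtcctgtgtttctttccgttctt
Each S100a13 count came with 1.5 and 1.63 S100a1 counts in Mock, against 2.18 and 2.00 in uniSTING. The genes are of similar exon length, 694 and 715 bases. Both uniSTING ratios lay above both Mock ratios, and how often this holds for other gene pairs was not counted. Single genes often lay apart in this way, 37.8% of all tested genes higher in uniSTING and 37.3% lower. The exact permutation test of this ratio gave p = 0.333 and cannot reach the threshold. That 1 gene passed and the other did not is no test of their difference.

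S100a4 (metastasin; ENSMUSG00000001020, chromosome 3, 90511078 to 90513352, plus strand), which binds the heavy chain of non-muscle myosin IIA, was scarce, with 43 and 46 reads per Mock library and 51 and 103 per uniSTING library. In CPM these are 2.44 and 2.08 against 2.72 and 4.14, and 1 uniSTING library stands well above the other 3. The log2 fold change of 0.62 (SE 0.25) just missed the threshold (adjusted p = 0.0587), and its 95% interval of 0.07 to 1.17 is not adjusted for the number of genes. Leaving out the first uniSTING library gave 0.88 (adjusted p = 0.00351), and leaving out the second gave 0.27 (adjusted p = 0.518). In each of these fits the lone uniSTING library is assumed to vary like the Mock libraries. With the length trends removed, the log2 fold change of S100a4 was 0.27 (exon length, adjusted p = 0.411), 0.26 (length and GC content, adjusted p = 0.433) or 0.19 (transcript length, adjusted p = 0.568). DESeq2 gave an adjusted p of 0.178 and limma-voom one of 0.0679, so it failed in both, and it passed in edgeR without a low count filter (adjusted p = 0.0191) and without the genes seen only in replicate 1 (adjusted p = 0.0362). Its level is also uncertain, as 302 of its 584 exon bases (51.7%) belong to exons of the predicted gene Gm42674 as well. The command in the file headers sets no option for reads that overlap more than 1 gene, and by default featureCounts leaves these out, so S100a4 can be undercounted. How many reads were left out was not measured. Gm42674 itself (also outside the rule for named genes) was at 0 in Mock and had 1 and 2 counts in uniSTING.

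S100a3 (ENSMUSG00000001021, chromosome 3, 90491966 to 90510009, plus strand), a cysteine-rich member known from hair follicles, drew 117 and 129 reads (Mock) and 126 and 153 reads (uniSTING). The 6.64 and 5.84 CPM in Mock overlapped the 6.73 and 6.15 CPM in uniSTING. Its log2 fold change of 0.05 did not pass (95% interval -0.26 to 0.35, adjusted p = 0.809) and was -0.05 with the exon length trend removed and -0.30 with the transcript length trend removed (adjusted p = 0.782 and 0.101). It shares 5.39% of its exon bases with Gm42674 and 5.73% with S100a2, which had no count.

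S100a14 (ENSMUSG00000042306, chromosome 3, 90434163 to 90436144, plus strand) and S100a16 (ENSMUSG00000074457, chromosome 3, 90444561 to 90450458, plus strand) are found mainly in epithelia and were near the floor. S100a14 reached 5 and 2 counts (Mock) and 14 and 18 counts (uniSTING). Summed over the groups and scaled by depth, the count was 4.16 times higher in uniSTING (exact 95% binomial interval 1.80 to 11.2, which covers counting error only), and the fitted log2 fold change was 2.00 (SE 0.64, adjusted p = 0.0228). Leaving out Mock replicate 2, uniSTING replicate 1 or uniSTING replicate 2 ended that call (adjusted p = 0.214, 0.0635 and 0.101). With a length correction its log2 fold change was 1.81 (exon length, adjusted p = 0.0415), 1.82 (length and GC content, adjusted p = 0.0399) or 1.75 (transcript length, adjusted p = 0.0489), in a direction that the filter had fixed. S100a16, at 4 and 3 counts (Mock) and 13 and 12 counts (uniSTING), was 3.25 times higher by the same measure (1.37 to 8.90), but fell short of the filter for the test. Both genes were higher in each uniSTING library than in either Mock library.

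**Figure D3:**
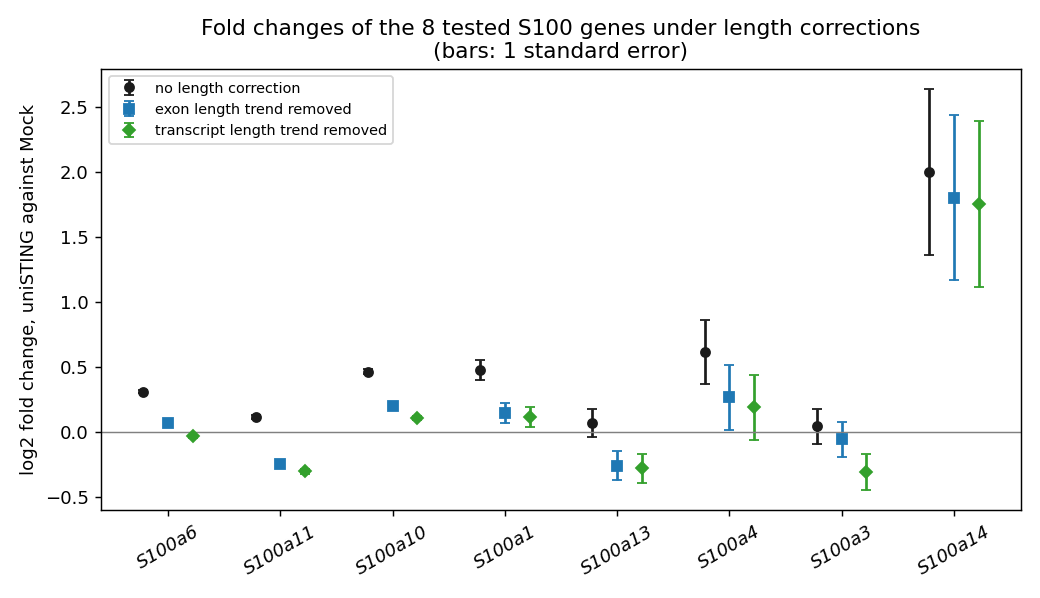
Log2 fold change (uniSTING against Mock) of the 8 tested S100 genes in the fit without a length correction (black), with the exon length trend removed (blue) and with the transcript length trend removed (green). Bars are 1 standard error. S100a1, S100a4, S100a10 and S100a14 (whose direction the filter had fixed) stay above 0 in all 3, while S100a11 goes from 0.12 to -0.24 and -0.30.

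Annexins, the calcium-dependent membrane-binding proteins that S100 dimers hold together, had 10 tested genes: 6 rose, 1 fell and 3 did not pass. Over all tested genes 24.9% rose and 25.4% fell. The median log2 fold change of the annexins was 0.19. Anxa1 had 973 ± 3.53 CPM in Mock and rose to 1355 ± 5.88, by 0.48 on the log2 scale (SE 0.01). Anxa2, the partner of S100a10, had 1194 ± 0.589 CPM and rose to 1411 ± 19.6, by 0.24 (SE 0.01), and Anxa11, a partner of S100a6, rose 1.32-fold. Anxa3 rose 1.14-fold. These 4 annexins also passed upward in all 14 alternative settings, but with the transcript length trend removed Anxa2 was at 0.066, Anxa3 at 0.046 and Anxa1 at 0.34. Each Anxa2 count came with 0.591 and 0.607 S100a10 counts in Mock, against 0.709 and 0.692 in uniSTING. Anxa2 has 3731 exon bases and S100a10 has 1212, and the order of their fold changes depended on the correction. Log2 fold changes of S100a10 and Anxa2 were 0.20 and 0.22 with the exon length trend removed, 0.19 and 0.22 with length and GC content, and 0.11 and 0.066 with transcript length.

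Genes for other binding partners, receptors and clients of S100 proteins had 27 tested members, of which 8 rose and 9 fell, with a median of -0.01. These shares are near the 24.9% higher and 25.4% lower over all tested genes. The change furthest from 0 was the rise of Plat (named after its values were seen), a tissue plasminogen activator gene, from 3.53 ± 0.0637 CPM in Mock to 9.53 ± 0.27 in uniSTING (log2 fold change 1.43, SE 0.13). Myh9, the myosin IIA heavy chain that S100a4 binds, had 725 ± 3.74 CPM in Mock and 358 ± 5.01 in uniSTING, a fall (log2 fold change -1.02, SE 0.02). Ahnak, the giant scaffold protein of the S100a10 and annexin A2 complex, dropped to 345 ± 0.329 CPM from 658 ± 9.14 in Mock (log2 fold change -0.93, SE 0.02). Iqgap1, a cytoskeletal scaffold, fell 1.51-fold. These are long genes, with 12928, 19938 and 16538 exon bases, and with the exon length trend removed their log2 fold changes were -0.75, -0.53 and -0.26, and with transcript length -0.72, -0.22 and -0.30, all past the threshold. Bsg, a membrane glycoprotein, rose 1.41-fold (0.30 on the log2 scale with the exon length trend removed). The gene for the RAGE receptor, Ager (outside the rule for named genes), had 58 and 85 counts in the replicate 1 libraries and 1 and 5 in the replicate 2 libraries of Mock and uniSTING, so its level is not comparable between replicates.

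**Figure D4:**
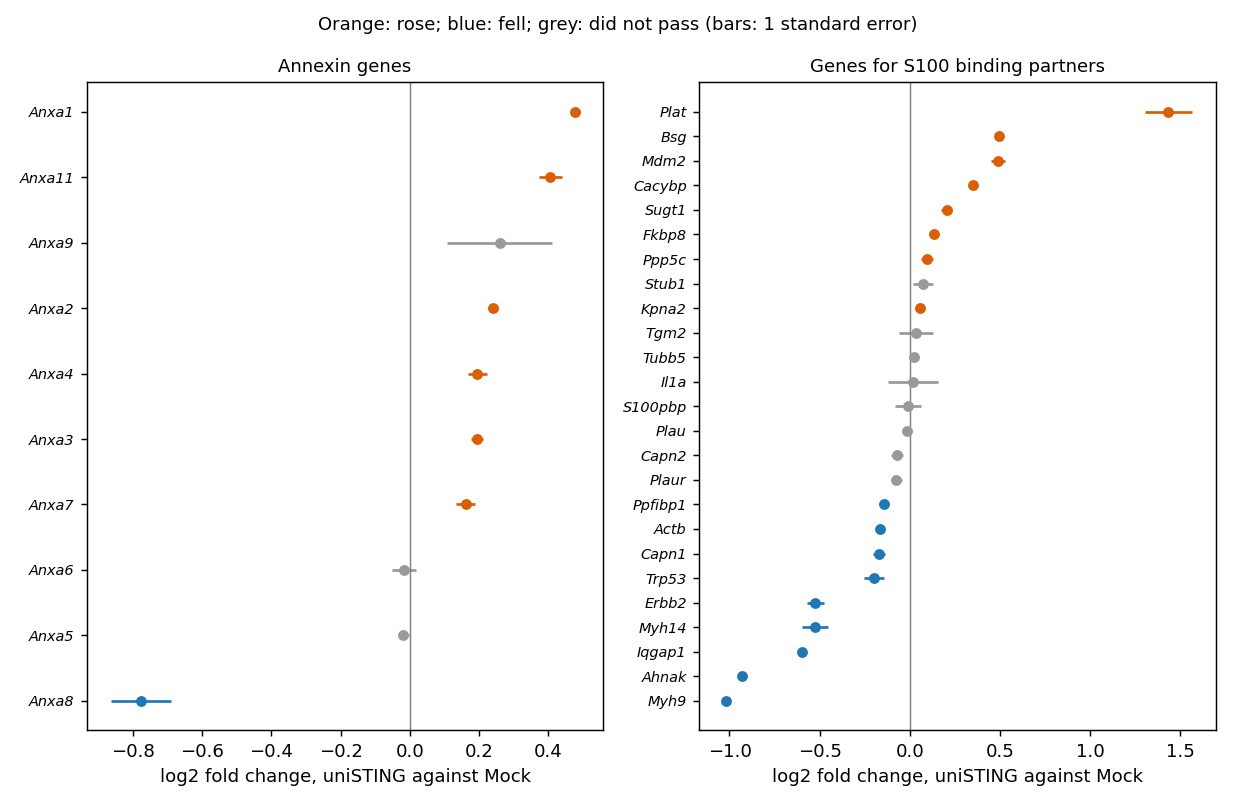
Log2 fold change (uniSTING against Mock) of the 10 tested annexin genes (left) and 25 tested genes for S100 binding partners (right, 2 more with a standard error of at least 0.5 are not drawn). Orange points rose, blue points fell and grey points did not pass, and bars are 1 standard error; Anxa8 (named after its values were seen) is the annexin that fell, and Myh9 and Ahnak lie lowest among the partners.

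Among 25 genes of other EF-hand proteins, 12 rose, 4 fell and 9 did not pass, with a median of 0.09 (24.9% of all tested genes rose and 25.4% fell). Myl6, a myosin light chain, rose 1.32-fold and Calu, a calcium-binding protein of the secretory pathway, 1.17-fold. Calm2, which encodes the calcium sensor calmodulin, rose 1.14-fold, but its log2 fold change was -0.04 with the exon length trend removed (adjusted p = 0.165) and it fell by 0.13 with length and GC content removed (adjusted p = 3.65e-04).

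Between the outermost members lie 105 genes that are not S100 genes. Only 13 had a count and 3 were tested, all predicted genes or pseudogenes: Gm4202, Rplp0-ps1 and Gm9774. The edgeR test passed 0 of these, also at an unadjusted p under 0.05, and DESeq2 and limma-voom passed 0. In edgeR 50.2% of all tested genes passed, 24.9% higher and 25.4% lower, and 3 genes are too few to describe the stretch. With the exon length trend removed 2 of the 3 neighbours fell, as did 2941 of all 12972 tested genes. Of the 3 other S100 genes tested, only S100a7a (outside the rule for named genes) passed the edgeR test (adjusted p = 0.0217). It had 8.88 ± 1.08 CPM in Mock and 11.5 ± 0.605 CPM in uniSTING.

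Over the 4 libraries, the genes whose profile came nearest that of S100a6, by Euclidean distance of log2 CPM minus the Mock mean, were Rpl10a (0.0108), Slc25a10 (0.0112) and Tmem206 (0.0115), among 7969 genes. Only genes with a mean of at least 16 CPM were compared. S100a14, with a mean of 0.187 CPM in Mock and 0.735 in uniSTING, lies far below that level. For S100a14, Bnip3 came nearest at a distance of 0.667, and genes at the level of S100a14 were not compared. With 4 libraries in 2 groups a small distance is close to a match of fold changes.

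Markers of other cell types were low, and some of each type differed between replicates. Of 17 myeloid genes listed 15 had a count, and together they summed to 29.7 and 15.4 CPM in Mock and 45.8 and 20.4 CPM in uniSTING, of which Lyz2 had 155 and 290 counts in the replicate 1 libraries and 0 in both replicate 2 libraries, as did Ptprc with 8 and 19 against 0. Some other myeloid genes were present in all libraries. Cd68, at 147 and 142 counts (Mock) and 201 and 260 counts (uniSTING), rose 1.44-fold (adjusted p = 0.00650), Cd14 had 98 and 173 against 160 and 216, and Csf1r had 21 and 22 against 23 and 28. These 5 myeloid genes are named after their values were seen, and their part in the members' changes was not tested. Fibroblast genes (10 listed) summed to between 72.2 and 83.4 CPM, of which Postn alone gave 59.8 to 71.7 CPM. Endothelial genes (7 listed) summed to 2.72 and 0.272 CPM in Mock replicates 1 and 2, and to 2.14 and 0.562 CPM in uniSTING. Dcn, Col3a1 and Thy1 (fibroblast) and Vwf (endothelial) had counts in the replicate 1 libraries only. Postn, Pdgfra and Pecam1, among others, had counts in all libraries. These fibroblast and endothelial genes are also named after their values were seen. In the replicate 2 libraries, where Lyz2 and Ptprc were at 0, the log2 differences were 0.31 for S100a6, 0.44 for S100a10, 0.13 for S100a11 and 0.45 for S100a1, against 0.32, 0.49, 0.11 and 0.51 for replicate 1. For S100a4 they were 0.15 in replicate 1 and 0.96 in replicate 2.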

How the data were processed

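RNA-seq libraries of 4T1 cells (2 Mock, 2 uniSTING) were grouped and numbered by their titles. The deposited values are raw counts per gene. Per the file headers, the authors counted with featureCounts 2.0.1 in paired-end mode, over exons grouped by gene, without a strand option, on uniquely mapped reads and the Ensembl 103 annotation of GRCm39. Reads were aligned with HISAT2, per the submitters' processing notes, in a version not given in the sources used here. In the file headers the libraries of a group share a code and differ in its suffix, whose meaning the sources used here do not give. Exon lengths are those deposited in the same tables.

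Symbols came from an identifier table (52093 of 53647 genes matched). The test was run in edgeR 4.0.16 (R 4.3.3): TMM, filterByExpr by group (minimum count 10, minimum total 15), glmQLFit and glmQLFTest, Benjamini-Hochberg adjustment over 12972 genes, threshold 0.05. Standard errors are derived from the F statistic and approximate. CPM uses TMM-scaled library sizes; differences within 1 replicate number use a prior count of 2. The length trend was removed by lowess (span 0.3) as offsets. Each trend was fitted on genes with a mean log2 CPM above the log2 of 16 and applied to all tested genes. S100a3, S100a4, S100a13 and S100a14 lay well below that level, so their corrected values rest on a trend measured in more abundant genes. Transcript length was known for 87.4% of tested genes (exon length for the rest) and GC content for 99.9%. The test was checked on simulated counts (12778 genes), which recovered 64.0% of the 1.25-fold changes and 82.0% of the 1.5-fold changes.

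The members and lists were chosen with earlier results of these data known. The rule names all members, up to 4 genes with the smallest p per list, and the 3 nearest profiles of 2 members. One gene that the rule names is not reported here. Alternatives were DESeq2 size factors, other filters, DESeq2 1.42.0, limma-voom (limma 3.58.1), the replicate block, leaving out each library and the length trend; the length and GC trends, the transcript length trend and leaving out 54 genes seen only in replicate 1 were chosen after seeing the data.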

Additional observations from a re-analysis of the deposited data

How the results depend on the processing

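Outside the length corrections, S100a1, S100a6, S100a10 and S100a11 kept their direction and their call in all 11 other settings (44 of 44 values; a fit that leaves a group with 1 library assumes that it varies like the other group), with log2 fold changes from 0.45 to 0.51, 0.30 to 0.32, 0.44 to 0.49 and 0.11 to 0.13. Removing length trends changed most. The number of members that rose was 3 with exon length, 3 with length and GC content and 2 with transcript length, and the number that fell was 1, 1 and 2. In the same order, 2974, 2914 and 2847 of all 12972 tested genes rose, and 2941, 2844 and 2731 fell. The members' median was then 0.11, 0.15 and 0.039. Each of these counts of members that rose, and each median, includes S100a14, whose direction the filter had fixed. It was 0.32 where 2 libraries had to reach 1 CPM, which drops S100a14, and ran from 0.29 to 0.40 when 1 library was left out. In the same order of length corrections, S100a11 was at -0.24, -0.26 and -0.30, S100a13 at -0.26, -0.21 and -0.28, and S100a3 at -0.053, -0.0092 and -0.30, while S100a6 turned to -0.030 with transcript length. The annexins that fell numbered 3, 2 and 2, the cluster neighbours that fell 2, 1 and 1, and the partners that rose 5 with transcript length. When 1 library was left out, the neighbours that fell ranged from 0 to 1, S100a13 from -0.0013 to 0.13 and S100a3 from -0.050 to 0.13. The cause of these changes was not tested beyond the length terms themselves. The replicate number as a block called 3374 genes higher and 3403 lower, and S100a4 passed (log2 fold change 0.63, adjusted p = 0.0371), with no other member's call changed. Differences between replicate 1 and 2 correlated between the groups (r = 0.53 across 7970 genes), but with 2 numbers the labels alone do not pair the libraries. Of 264 values under alternatives 222 were classed as the same as in the main fit. They mix fold changes of members with gene counts and medians, which have no call of their own. For example, 2343 genes higher in DESeq2 was classed as the same as 3225 in the main fit. So 222 is not a number of calls that held. For S100a14 and S100a16, under 20 counts in every library, depth limits what can be told.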
